A study of Trichoderma asperellum with 12 samples.

Results

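The comparison described here is that of *T. asperellum* TJ01 mycelium after 24 h in 500 μg/mL dichlorvos with untreated mycelium, which rests on 6 of the 12 libraries of the series. Its members are 8748 of the 11647 genes in the deposited table, namely those whose FPKM averaged 1 or more in the 6 libraries. FPKM are sequenced fragments scaled by transcript length and by library size. The study grew spores of strain TJ01, a filamentous fungus, in PD medium for 24 h, then kept the mycelia for another 24 h in Burk broth, a nitrogen-poor medium, at 28 °C and 180 rpm. Dichlorvos was added to that broth at 0 (control), 100, 500 or 1000 μg/mL, and 3 libraries were sequenced in each of the 4 groups. Strain, media, temperature, shaking and times were the same in every group, so that the dose of dichlorvos is the only stated difference. The libraries represent whole cultures of 1 strain, and the labels do not say whether the 3 libraries of a group came from separate flasks, while the methods speak of 3 repeats of each experiment without saying of what. The p-values therefore measure only the spread between these libraries, which may be technical. The table's annotation held 0 genes under the terms for conidiation that were searched, so that the share of conidiating hyphae in the mycelium could not be followed.

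Dichlorvos is an organophosphorus insecticide that acts on animals by blocking acetylcholinesterase. Fungi are known to meet foreign organic compounds with oxidising enzymes, with glutathione S-transferases that couple the compound to the thiol glutathione, and with membrane transporters of the ABC and MFS families that export the product. Peroxisomes are organelles that break down fatty acids to acetyl-CoA, which the glyoxylate cycle turns into building material for sugars when other carbon is short. Making ribosomes takes much of the resources of a growing cell and is tuned to growth.

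Control replicate 1 stood apart from the other controls. Over the 8748 genes, which are not independent replicates, log2(FPKM + 1) correlated at 0.984 between control replicates 2 and 3, at 0.892 and 0.890 between control replicate 1 and these, and at 0.970 to 0.983 among the libraries at 500 μg/mL. Control replicate 1 was more than 2-fold above the mean of the other controls in 2693 genes and more than 2-fold below it in 882. Calls and counts are therefore given with and without it. The moderated test of limma on log2(FPKM + 1), with all 4 groups in 1 fit, called a gene at a Benjamini-Hochberg adjusted p under 0.05 over all 8748 genes and a log2 fold change beyond 1 in size. It called 936 genes higher at 500 μg/mL (10.7% of those tested) and 313 lower (3.58%). Without control replicate 1 it called 1482 higher (16.9%) and 388 lower (4.44%). The same way in both fits were 859 higher (9.82%) and 185 lower (2.11%), and 0 genes changed direction between the fits. Only these genes are said below to have risen or fallen. A rise beyond 2 on the log2 scale in both fits was seen in 264 of them, and a fall of that size in 21. The median log2 fold change of all tested genes was 0.09 over 12 libraries and 0.28 without control replicate 1, and -0.07 and -0.10 with each library centred on its median. Higher genes made up 74.9% of the calls over 12 libraries and 79.3% without control replicate 1, but 59.4% and 45.0% after that centring, so that the balance of higher and lower genes rests on the scaling. The calls held in both fits and under both centred fits for 618 higher genes (7.06%) and 175 lower (2%). The NOISeq rule compares the difference between groups with that between libraries of a group. It was rewritten here rather than run from its package, at the paper's limits of a probability of 0.8 and a 2-fold ratio. By it 174 genes were higher and 43 lower, and 494 and 180 without control replicate 1. The counts that the paper reports by NOISeq at this dose lie near the latter. The paper does not say that a control was left out.

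Among annotated genes above 0 in all 6 libraries, the 10 with the largest rise included a DNA repair enzyme, enzymes of oxidation and of amino acid metabolism, and a pair of drug-exporting transporters. Names are those of the closest KEGG entry in the table. The gene of the DNA repair protein methylated-DNA-[protein]-cysteine S-methyltransferase, which removes methyl groups from guanine (jgi_Trias1_61459), was at 15.9, 11.6 and 18.6 FPKM in control replicates 1 to 3 and at 613, 874 and 1618 at 500 μg/mL. All 3 treated libraries lay more than 10-fold above every control, and the log2 fold change was 5.89 ± 0.31 (SE) over 12 libraries and 5.93 ± 0.34 without control replicate 1. The 3 libraries at 100 μg/mL were at 29.7, 42.3 and 41.6 FPKM and those at 1000 μg/mL at 3572, 2647 and 2886, so that the middle dose stood between them.

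The largest rise of all annotated genes was that of jgi_Trias1_173708, from 4.35, 5.64 and 7.66 FPKM to 614, 617 and 706, a log2 fold change of 6.58 ± 0.21 with and 6.41 ± 0.19 without control replicate 1. Its KEGG match to pelota, a protein that releases stalled ribosomes, was weak (E value 5e-23), and its closest match in the nr protein database has no known function. Carboxyvinyl-carboxyphosphonate phosphorylmutase (jgi_Trias1_57246), an enzyme known from bacteria that make phosphonate antibiotics, was at 8.29, 10.7 and 8.89 FPKM in the controls and at 661, 689 and 901 at 500 μg/mL. Selenocysteine lyase (jgi_Trias1_199110), a pyridoxal phosphate enzyme, was at 1.11, 0.91 and 0.78 FPKM in the controls and at 59.6, 81.1 and 72.2 at 500 μg/mL. In none of these genes did the treated libraries come near the controls.

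Dimethylaniline monooxygenase (jgi_Trias1_198776), a flavin enzyme that oxidises nitrogen and sulfur in foreign compounds, rose from 4.49, 3.89 and 5.15 FPKM to 150.3, 145 and 194. The ABC transporter SNQ2 (jgi_Trias1_146459), an exporter that gives yeast resistance to mutagens, rose from 3.05, 2.34 and 3.16 FPKM to 67.7, 76.0 and 140.02. A transporter with an MDR-type KEGG match (jgi_Trias1_60292, E value 1e-41) rose from 2.91, 4.91 and 4.17 FPKM to 127, 120.3 and 131. Both transporters rose more than 20-fold over the highest control, yet they differed at the lowest dose: SNQ2 was at 3.18 to 4.67 FPKM at 100 μg/mL, within reach of the controls, and the MDR gene at 19.8 to 23.2. The other members of the 10 were 3-isopropylmalate dehydrogenase of leucine synthesis (LEU2, jgi_Trias1_59059), a 3-oxoacyl-[acyl-carrier protein] reductase (jgi_Trias1_48114) and a KEGG entry without a stated function (jgi_Trias1_81865). The reductase name rests on a weak match (E value 3e-29). Over the 10 genes the adjusted p of limma with Benjamini-Hochberg adjustment was between 1.25e-09 and 3.17e-07, and all of them held in both fits and under centring.

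**Figure D1:**
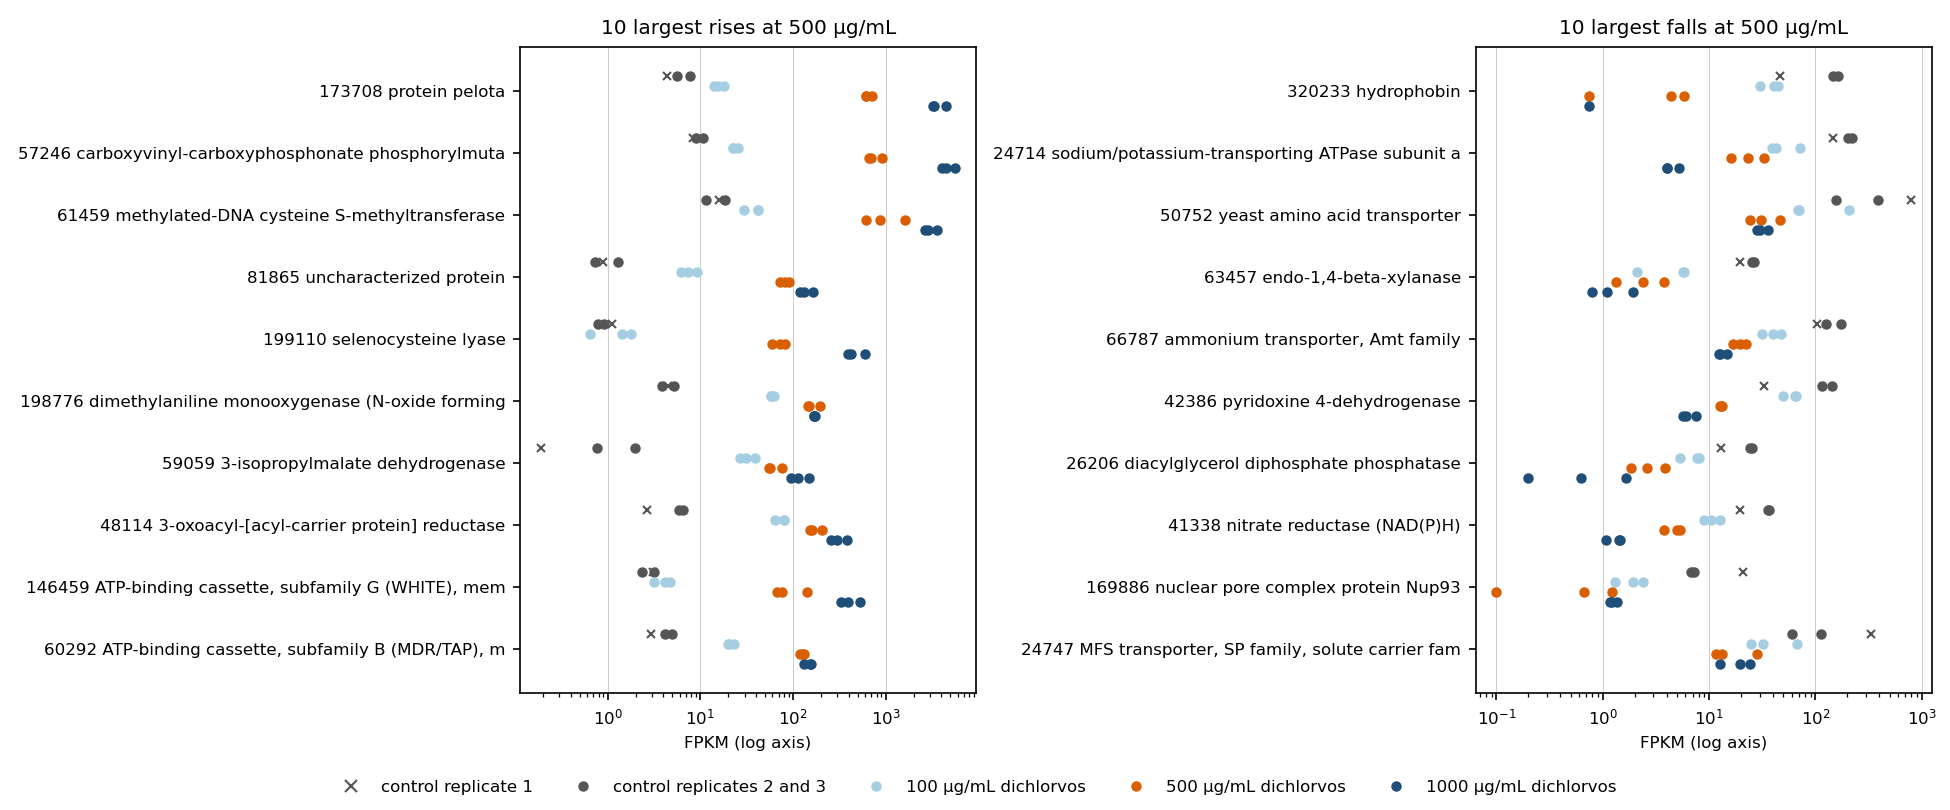
FPKM (log axis) of the 10 annotated genes with the largest rise (left) and the 10 with the largest fall (right) at 500 μg/mL, with 1 point for each of the 12 libraries, coloured by dose, and control replicate 1 as a cross; values of 0 are not drawn. In every gene the 3 libraries at 500 μg/mL lie outside the range of the 3 controls, as in jgi_Trias1_61459 with 613 to 1618 FPKM against 11.6 to 18.6.

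Several of the genes that rose lay side by side. The numbers in the identifiers of 10140 genes (87.1%) matched old locus tags of the RefSeq annotation of another strain, FT101 (assembly ASM2064786v1). As a check of that match, 52 of 52 genes with a symbol of the RPL or RPS kind there had a KEGG ribosomal protein here. In the gene order of FT101, which may differ from that of TJ01, 83 of the 816 risen genes with a locus (10.2%) stood in 22 runs of 3 or more direct neighbours that all rose. Of the 171 fallen genes with a locus, 4 stood in 1 such run. Of all tested genes 9.82% rose and 2.11% fell, so that by their number alone runs of risen genes are the more likely. How many runs a random gene order would give was not tested.

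The longest run held 8 genes, from TrAFT101_004684 to TrAFT101_004691. In order these were a m7GpppX diphosphatase, an arylsulfatase, a succinate-semialdehyde dehydrogenase, the 3-oxoacyl-[acyl-carrier protein] reductase and the 3-isopropylmalate dehydrogenase named above, a pantothenate-type MFS transporter, a gene without known function and an amidase. Amidases split carbon-nitrogen bonds, and the amidase of the run (jgi_Trias1_429856) rose from 6.94, 6.62 and 7.17 FPKM to 149.6, 139 and 182. The succinate-semialdehyde dehydrogenase (jgi_Trias1_90547), which had the largest rise of the 3 risen aldehyde dehydrogenases, rose from 3.79, 7.38 and 9.15 FPKM to 134, 129 and 145. The 8 log2 fold changes were between 1.33 and 5.09 over 12 libraries and between 1.64 and 4.77 without control replicate 1. Past an untested locus after the run, TrAFT101_004694 (jgi_Trias1_59053) also rose, by 2.345 with and 2.283 without control replicate 1.

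The second run held 7 genes, from TrAFT101_011765 to TrAFT101_011771, and brought together a multidrug transporter of the DHA1 family, 4 genes of unknown function, the selenocysteine lyase and the gene with the match to pelota. The transporter (jgi_Trias1_29530) was listed at 0, 0.12 and 0 FPKM in the controls and at 7.06, 11.3 and 9.82 at 500 μg/mL. One of the unannotated genes (jgi_Trias1_49599) rose from 3.68, 4.17 and 3.39 FPKM to 428, 383 and 426, a log2 fold change of 6.44 ± 0.25 with and 6.44 ± 0.26 without control replicate 1. At 100 μg/mL it was at 2.23, 4.21 and 5.98 FPKM, a range that overlaps the controls, and at 1000 μg/mL at 2234, 2819 and 2272. The 3 loci before the run had log2 fold changes from -0.18 to -0.01 over 12 libraries and from -0.59 to -0.04 without control replicate 1, and were not called. Past an untested locus after the run, TrAFT101_011773 was at -0.742 with and 0.251 without control replicate 1, and was not called either.

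One run of 5 genes carried the names 2,3-dihydroxybenzoate decarboxylase, phenol 2-monooxygenase, salicylate hydroxylase, catechol 1,2-dioxygenase and a putative L-carnitine dehydratase. The name phenol 2-monooxygenase rests on a weak match (E value 3e-25). Catechol 1,2-dioxygenase, which opens the ring of catechol (jgi_Trias1_174687), rose from 4.97, 7.36 and 7.92 FPKM to 34.3, 36.5 and 34.9. Salicylate hydroxylase, which makes catechol from salicylate (jgi_Trias1_50054), was listed at 0, 0.90 and 1.27 FPKM in the controls and at 11.2, 10.03 and 10.7 at 500 μg/mL. Phenol 2-monooxygenase (jgi_Trias1_60803) rose less, by 1.13 on the log2 scale over 12 libraries and 1.29 without control replicate 1, and the L-carnitine dehydratase (jgi_Trias1_200082) by 1.04 and 1.15. Both were under the 2-fold limit in both centred fits. Just before the run, TrAFT101_005494 was at 1.635 with and 1.192 without control replicate 1, and was not called. After this run a 4-coumarate--CoA ligase (TrAFT101_005502) also rose, by 1.40 with and 1.14 without control replicate 1. The locus between the run and that ligase (TrAFT101_005501) was called higher over 12 libraries alone, at 1.12. The other run of 5 genes (TrAFT101_002307 to TrAFT101_002311) held an alpha/beta hydrolase, an esterase and 3 genes without known function, all at or below 0.56 FPKM in the controls and at 1.37 to 32.2 FPKM at 500 μg/mL.

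**Figure D2:**
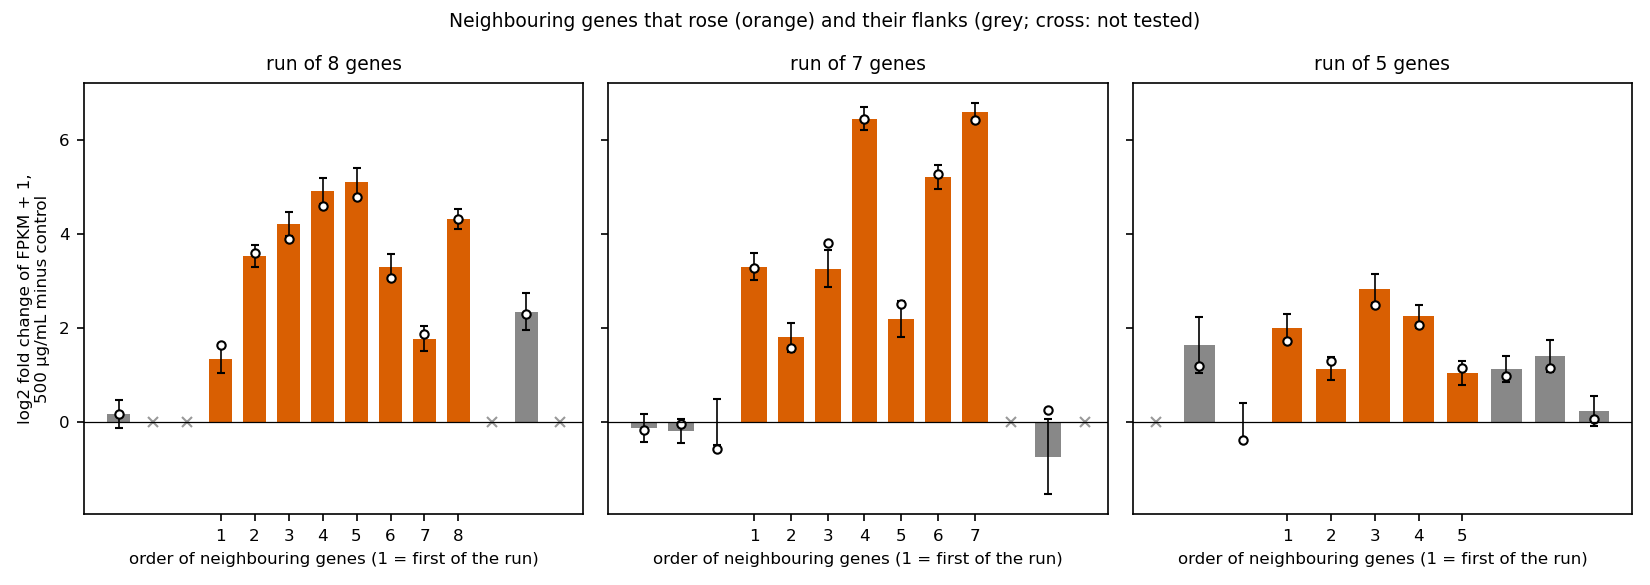
Log2 fold change of FPKM + 1 at 500 μg/mL against control (bars, ± SE, 12 libraries; open circles, without control replicate 1) of neighbouring genes in 3 runs and of 3 loci on each side, in the gene order of FT101. Orange bars are the genes of the run. The run of 7 reaches 6.58, while the loci just before it lie at -0.18 to -0.01 over 12 libraries. Not all flanks are flat: a locus after the run of 8 reaches 2.345 and one after the run of 5 reaches 1.40. A locus before the run of 5 reaches 1.635 and one after the run of 7 lies at -0.742, both without a call.

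The genes were further described in 34 lists of known function, set up from the wording of the annotation. Among the detoxification lists with at least 6 tested genes, the share of risen genes was highest in the glutathione S-transferases: 8 of 15 tested genes (53.3%) rose, against 9.82% of all genes, with a median log2 fold change of 1.60 with and 1.99 without control replicate 1, beside medians of 0.09 and 0.28 over all genes. The most abundant of them (jgi_Trias1_55913) rose from 23.6, 40.7 and 36.7 FPKM to 414, 335 and 466, a log2 fold change of 3.57 ± 0.24 with and 3.34 ± 0.20 without control replicate 1. A second one (jgi_Trias1_62326), like the other list members without a place in the rule for named genes chosen after its values were seen, rose from 18.6, 22.0 and 20.7 FPKM to 135, 115 and 134. The other 6 stayed between 1.76 and 32.2 FPKM at 500 μg/mL. All 8 calls held under centring.

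Of the ABC transporters 11 of 32 rose (34.4%), and 9 of these calls held under both centred fits. Beside the SNQ2 and MDR genes above they included a PDR-type pump (jgi_Trias1_197594), at 53.3, 14.9 and 15.7 FPKM in the controls and 136, 129 and 128 at 500 μg/mL. The summed FPKM of the 32 genes moved far less than these members, from 2121, 1256 and 1222 in the controls to 2156, 2054 and 2148, so that with control replicate 1 the groups overlapped. Of the multidrug MFS transporters 6 of 35 rose (17.1%), led in both fits by jgi_Trias1_134523 among genes above 0 in every library, from 18.5, 28.7 and 16.9 FPKM to 123, 186 and 205. All 6 held under both centred fits. The median log2 fold change of the list was 0.40 with and 0.19 without control replicate 1, and 0.25 and -0.19 after centring. With centring and no control replicate 1 limma called 8 higher and 4 lower.

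Dehalogenases and epoxide hydrolases open carbon-halogen bonds and epoxide rings. Dichlorvos carries chlorine, but whether any of these enzymes acts on it was not tested. In this list 4 of 10 genes rose (40%). Haloalkane dehalogenase (jgi_Trias1_61111) was at 9.11, 17.7 and 15.9 FPKM in the controls and at 62.5, 94.7 and 177 at 500 μg/mL. It stood at 15.0 to 30.3 FPKM at 100 μg/mL and at 34.4 to 109 at 1000 μg/mL, so that its highest mean, 111 FPKM, was that of the middle dose. 2-haloacid dehalogenase (jgi_Trias1_58310) rose from 24.2, 39.3 and 59.9 FPKM to 151, 131 and 142.

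Flavin monooxygenases and old yellow enzymes rose in 7 of 24 genes (29.2%), 6 of them under both centred fits as well, and 1 fell. The NADPH2 dehydrogenase of the old yellow enzyme type (jgi_Trias1_56683) rose from 3.15, 2.10 and 2.89 FPKM to 79.6, 65.7 and 83.6. The fallen member, a gene with the KEGG name salicylate hydroxylase (jgi_Trias1_133934), went from 18.2, 64.9 and 52.0 FPKM to 9.71, 7.76 and 7.09. Cytochrome P450 genes split: 2 of 9 rose and 2 fell. The risen gene with the larger change (jgi_Trias1_359213), a fusion of P450 and its reductase, was at 313, 314 and 144 FPKM in the controls and at 1099, 1010 and 536 at 500 μg/mL, with a log2 fold change of 1.80 ± 0.39 with and 1.98 ± 0.41 without control replicate 1. Alcohol dehydrogenases and aldo-keto reductases also went both ways, with 4 of 18 risen and 2 fallen, and so did aldehyde dehydrogenases, with 3 of 23 risen and 1 fallen.

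The single tested gene of the cholinesterase type (acetylcholinesterase, jgi_Trias1_311981), the enzyme class that dichlorvos blocks in animals, was at 6.51, 1.03 and 1.33 FPKM in the controls and at 2.46, 1.94 and 1.67 at 500 μg/mL. The treated values lay between control replicate 1 and the other controls, so that the log2 fold change turned from -0.13 with to 0.47 without control replicate 1, and the gene was not called in either fit. The search terms used here found 4 genes of this type. The paper counts more acetylcholinesterase genes and reports none of them as significantly altered at this dose.

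**Figure D3:**
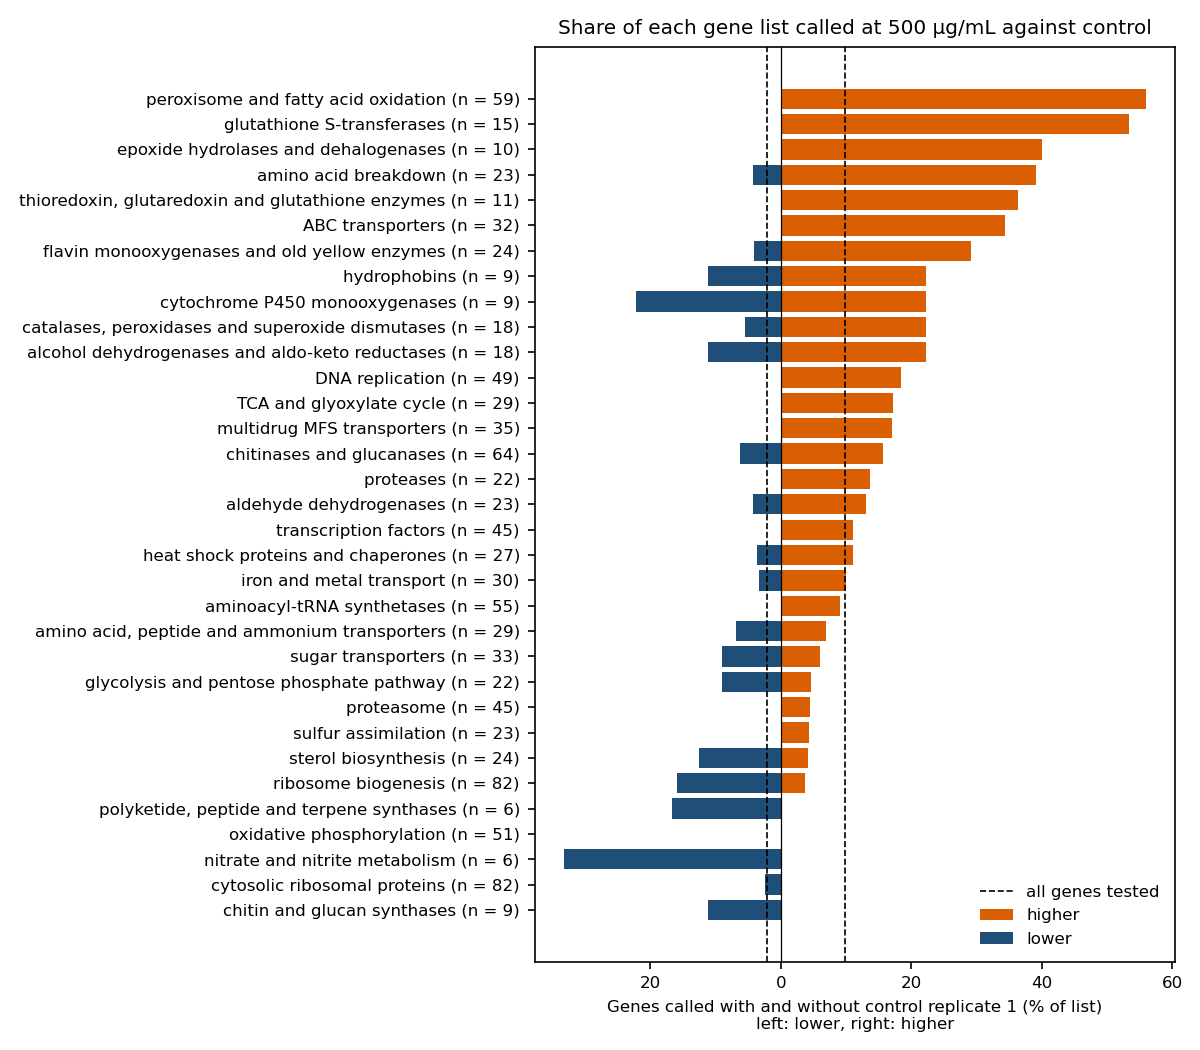
Share of each gene list with at least 6 tested genes that rose (orange, right) or fell (blue, left) at 500 μg/mL, counting genes called with and without control replicate 1; dashed lines mark the shares of all tested genes, 9.82% and 2.11%. Peroxisome and fatty acid oxidation genes (55.9%) and glutathione S-transferases (53.3%) lead the risen side, and 33.3% of the nitrate and nitrite genes fell.

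Genes of the antioxidant systems rose in part. Thioredoxin, glutaredoxin and glutathione enzymes rose in 4 of 11 genes (36.4%), and 2 of these calls held under both centred fits. Glutathione reductase (GTR1, jgi_Trias1_56344), which returns oxidised glutathione to its working form, was at 90.2, 36.1 and 30.2 FPKM in the controls and at 221, 226 and 240.1 at 500 μg/mL, a log2 fold change of 2.28 ± 0.31 with and 2.76 ± 0.16 without control replicate 1. Thioredoxin 1 (jgi_Trias1_152954) rose from 254, 411 and 349 FPKM to 1070, 1123 and 1126. Of the catalases, peroxidases and superoxide dismutases, 4 of 18 rose, 3 of them under both centred fits as well, and 1 fell. Glutathione peroxidase (jgi_Trias1_56993) was the most abundant risen member, at 452, 454 and 240.0 FPKM in the controls and 1400, 1668 and 1220 at 500 μg/mL. Catalase CAT1 (jgi_Trias1_52822) went the other way, from 52.4, 35.7 and 36.3 FPKM to 10.5, 9.16 and 9.60, while a catalase-peroxidase (jgi_Trias1_197596) rose from 3.55, 13.9 and 16.2 FPKM to 46.02, 42.4 and 53.5. In neither gene did the groups overlap.

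The largest group to rise was that of peroxisome and fatty acid oxidation, in which 33 of 59 genes (55.9%) rose, against 9.82% of all genes. The median log2 fold change was 1.23 with and 1.32 without control replicate 1, and 1.07 and 0.95 after centring. Their summed FPKM was 8754, 8622 and 6065 in the controls and 18500, 20810 and 18920 at 500 μg/mL, so that control replicate 1 was close to the other controls in this list. Peroxins, the proteins that build the organelle, rose in 13 of 20 genes, and the other members, mostly enzymes and carriers, in 20 of 39. Acetyl-CoA acyltransferase 1, the thiolase that closes each round of beta-oxidation (jgi_Trias1_171388), rose from 698, 460 and 323 FPKM to 2582, 2673 and 2211. An acyl-CoA dehydrogenase (jgi_Trias1_24682), which opens the round, rose from 778, 525 and 339 FPKM to 1696, 1979 and 1684. The largest fold change was that of an enoyl-CoA hydratase (jgi_Trias1_246336), from 15.6, 13.9 and 10.3 FPKM to 116, 93.7 and 82.4, a log2 fold change of 2.79 ± 0.26 with and 2.91 ± 0.26 without control replicate 1. Peroxisomal membrane protein 4 (jgi_Trias1_59588) rose from 88.3, 93.6 and 54.1 FPKM to 270, 355 and 293. Of the 33 rises, 23 held under both centred fits.

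Both enzymes that set the glyoxylate cycle apart rose with them. Malate synthase (jgi_Trias1_132204) went from 895, 884 and 685 FPKM to 2791, 3331 and 2922. Isocitrate lyase rose in 2 genes, the more abundant (jgi_Trias1_22393) from 1059, 1837 and 1277 FPKM to 3518, 3857 and 3350. With centring and no control replicate 1, jgi_Trias1_22393 was under the 2-fold limit. In the list of the TCA and glyoxylate cycle as a whole, 5 of 29 genes rose (17.2%), and 2 of these calls held under both centred fits. Their median log2 fold change was 0.29 with and 0.31 without control replicate 1, near that of all genes without control replicate 1. Oxidative phosphorylation, by contrast, had 0 of 51 genes called in both fits by limma, with 2 genes higher and 9 lower at an unadjusted p under 0.05 over 12 libraries (20.5% and 12.4% of all genes) and 0 called by the NOISeq rule.

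Amino acid breakdown rose in 9 of 23 genes (39.1%), and 1 fell. Of the enzymes of tyrosine breakdown, 3 were among the risen. 4-hydroxyphenylpyruvate dioxygenase (jgi_Trias1_42711) went from 196, 168 and 236 FPKM to 650.5, 513 and 437. Homogentisate 1,2-dioxygenase (jgi_Trias1_66094) went from 27.1, 70.7 and 110 FPKM to 462, 401 and 414. Fumarylacetoacetase, the last enzyme of that route (jgi_Trias1_133828), went from 33.2, 26.5 and 37.5 FPKM to 210.1, 189 and 174, a log2 fold change of 2.53 ± 0.21 with and 2.56 ± 0.21 without control replicate 1. Arginase (jgi_Trias1_186713), which splits arginine into ornithine and urea, rose from 11.7, 10.5 and 12.97 FPKM to 54.1, 49.0 and 61.6. Maleylacetoacetate isomerase (jgi_Trias1_51869), which acts just before fumarylacetoacetase and was not in the list, rose from 9.21, 8.12 and 9.15 FPKM to 46.9, 41.1 and 45.1, and was added after its values were seen. A second gene named 4-hydroxyphenylpyruvate dioxygenase (jgi_Trias1_33242) fell from 20.0, 9.89 and 10.7 FPKM to 3.28, 2.41 and 3.35, and it belonged to the run of 4 neighbours that fell. The summed FPKM of the 23 genes was 3452, 5284 and 6971 in the controls and 11570, 10670 and 8899 at 500 μg/mL.

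**Figure D4:**
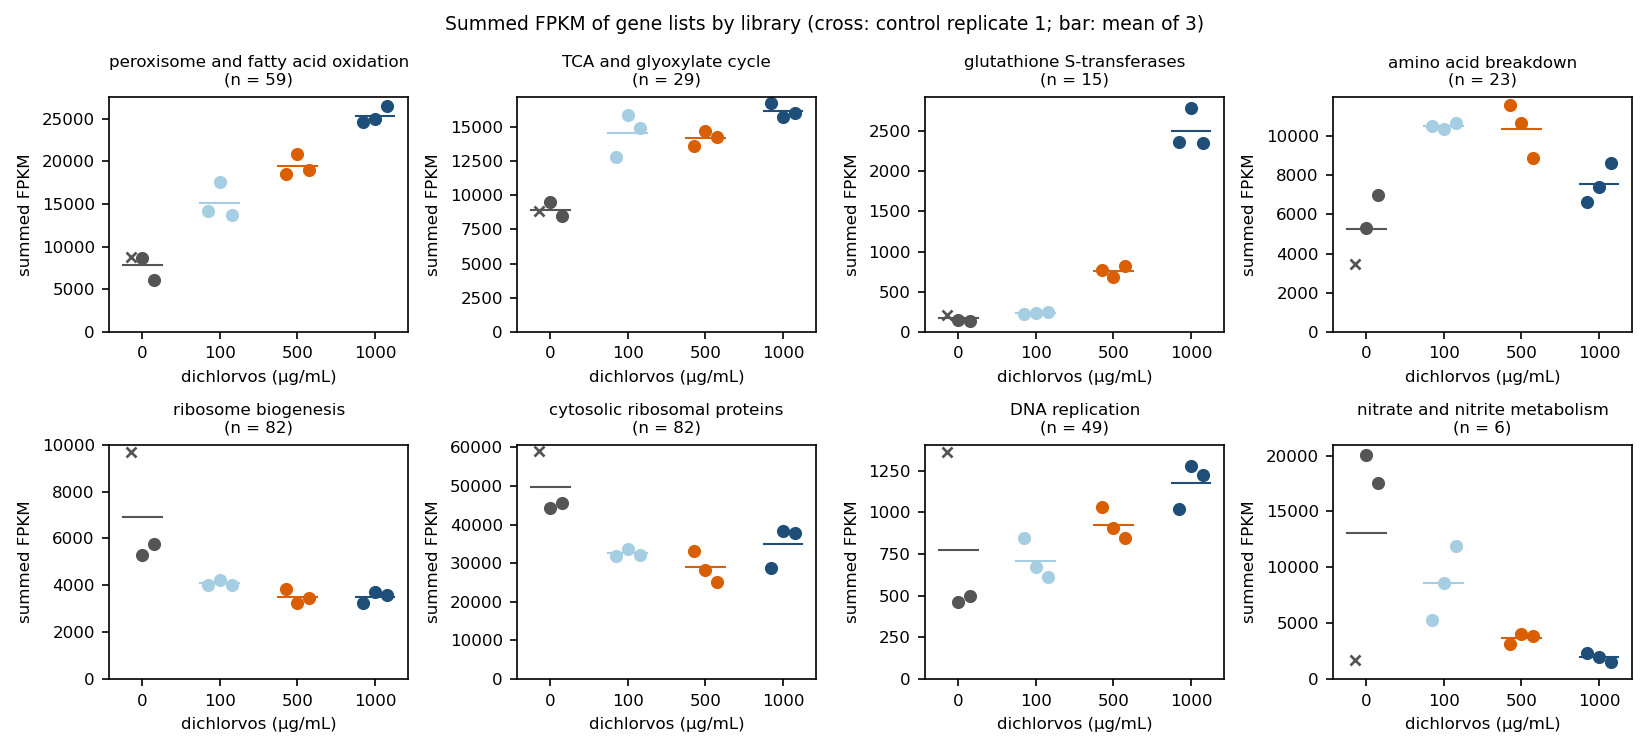
Summed FPKM of the tested genes of 8 lists in each of the 12 libraries, by dose; crosses are control replicate 1 and bars the means of 3 libraries. For peroxisome and fatty acid oxidation the controls sum to 6065 to 8754 and the libraries at 500 μg/mL to 18500 to 20810, while control replicate 1 lies far from the other controls in DNA replication (1362 against 460 and 502) and in nitrate and nitrite metabolism (1681 against 20050 and 17550).

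DNA polymerases made up most of the risen genes of DNA replication, of which 9 of 49 rose (18.4%). They were the DNA polymerases of the kappa, eta, iota, zeta and IV types, the mitochondrial polymerase gamma and a subunit of polymerase delta, 7 of 21 polymerase genes tested. Polymerases kappa, eta, iota and zeta copy damaged DNA past lesions. DNA polymerase eta (jgi_Trias1_129806) was at 3.13, 0.51 and 0.51 FPKM in the controls and at 7.25, 4.35 and 6.97 at 500 μg/mL, and DNA polymerase gamma (jgi_Trias1_176143) at 8.09, 4.12 and 8.36 and at 25.1, 26.7 and 23.2. The MCM helicase subunits that start replication rose in 1 of 12 genes. Control replicate 1 was high in this list, with a summed FPKM of 1362 against 460 and 502 in the other controls and 847 to 1030 at 500 μg/mL. Without it 21 of the 49 genes were called higher (the median log2 fold change being 0.80, against 0.38 over 12 libraries), beside 16.9% of all genes.

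The count for the proteasome depended both on control replicate 1 and on the scaling. Over 12 libraries 2 of its 45 genes were called higher and without control replicate 1 17 were, with medians of 0.50 and 0.93, but with centring 2 were, and 3 with centring and no control replicate 1, with medians of 0.34 and 0.55. The summed FPKM was 3291 in control replicate 1, 1516 and 1576 in the other controls, and 4012 to 4095 at 500 μg/mL. The gene with the largest rise (jgi_Trias1_30058) was at 162, 257 and 230 FPKM in the controls and 1412, 1633 and 1742 at 500 μg/mL, and its KEGG name, regulatory subunit N2, rests on a match with an E value of 6e-45. It made up a large part of the treated sums. Without this gene they would lie under the sum of control replicate 1 and above those of the other controls.

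Genes of ribosome production were lower. Of 82 ribosome biogenesis genes 13 fell (15.9%, against 2.11% of all genes) and 3 rose, and limma called 38 lower over 12 libraries and 14 without control replicate 1, and 48 and 47 after centring. The median log2 fold change was -0.98 with and -0.68 without control replicate 1. The summed FPKM was 9679, 5313 and 5767 in the controls and 3838, 3233 and 3465 at 500 μg/mL, so that all treated libraries lay under all controls and control replicate 1 was the highest. Among the fallen genes was BMS1 (jgi_Trias1_54404), a GTPase of small subunit assembly, at 136, 110 and 122 FPKM in the controls and 58.0, 51.8 and 48.7 at 500 μg/mL. Nucleolar protein 14 (jgi_Trias1_33381) fell from 97.8, 49.3 and 58.6 FPKM to 26.2, 19.8 and 20.9. TMA23 (jgi_Trias1_125183) had the largest fall of the list by the smaller of its changes in both fits, a log2 fold change of -1.39 ± 0.33 with and -1.30 ± 0.35 without control replicate 1. The 3 genes of the list that rose all bore the KEGG name SSF1/2 and had at most 4.97 FPKM in any control. A pair of them, jgi_Trias1_35829 and jgi_Trias1_88288, lay in the same run of 4 neighbours, and their names rest on weak matches (E values of 8e-28 and 5e-32).

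The count of fallen cytosolic ribosomal proteins depended on the scaling. Of 82 genes 2 fell (2.44%, a share near that of all genes), 10 being called lower over 12 libraries and 4 without control replicate 1, but with centring 31 were called lower, and 56 with centring and no control replicate 1. At an unadjusted p under 0.05 71 were lower over 12 libraries, beside the 12.4% of all genes given above. Their median log2 fold change was -0.82 with and -0.69 without control replicate 1, and -0.97 and -1.06 after centring. In sum they were at 59020, 44340 and 45640 FPKM in the controls and at 33290, 28320 and 25160 at 500 μg/mL. In bulk libraries of FPKM a lower share of all transcripts and less RNA per cell cannot be told apart. Aminoacyl-tRNA synthetases, which load amino acids for translation, rose in 5 of 55 genes (9.09%), near the share of all genes, and 3 of these calls held under both centred fits.

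The 10 annotated genes with the largest falls included a hydrophobin, uptake systems for nitrogen and sugar, and nitrate reductase. The hydrophobin, a small secreted surface protein (jgi_Trias1_320233), fell from 46.5, 145 and 165 FPKM to 4.40, 5.83 and 0.75, a log2 fold change of -4.71 ± 0.54 with and -5.28 ± 0.47 without control replicate 1. An ammonium transporter of the Amt family (jgi_Trias1_66787) fell from 103, 172 and 126 FPKM to 17.0, 19.5 and 22.2. The amino acid transporter INDA1_2 (jgi_Trias1_50752) fell from 792, 155 and 391 FPKM to 46.1, 30.6 and 24.4, its controls being spread over 5-fold. A sugar transporter with a KEGG match to the myo-inositol type (jgi_Trias1_24747) fell from 335, 60.0 and 114 FPKM to 28.1, 11.5 and 13.1. In each of these the treated libraries stayed under the lowest control. Other transporters of the same kinds rose. The amino acid transporter INDA1_1 (jgi_Trias1_160782) rose by 2.04 on the log2 scale with and 2.68 without control replicate 1. A sugar transporter with a KEGG match to the alpha glucoside type (jgi_Trias1_138828) rose by 1.43 and 1.77.

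A cation pump named for the alpha subunit of the sodium/potassium ATPase (jgi_Trias1_24714) fell from 147, 223 and 204 FPKM to 33.0, 23.1 and 16.3. An endo-1,4-beta-xylanase (jgi_Trias1_63457), which cuts plant cell wall xylan, fell from 19.5, 26.5 and 25.6 FPKM to 2.40, 1.33 and 3.81. Pyridoxine 4-dehydrogenase (jgi_Trias1_42386) fell from 32.7, 143 and 115 FPKM to 13.2, 12.6 and 12.9. The remaining members of the 10 were a phosphatidate phosphatase (jgi_Trias1_26206) and a gene with the KEGG name Nup93 (jgi_Trias1_169886). Over the 10 falls the adjusted p of limma with Benjamini-Hochberg adjustment was between 4.33e-06 and 0.00282.

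Nitrate and nitrite metabolism had 6 tested genes, of which 2 fell. Nitrate reductase (jgi_Trias1_41338) fell from 19.7, 36.6 and 36.0 FPKM to 3.77, 4.98 and 5.31, and copper-containing nitrite reductase (jgi_Trias1_64276) from 106, 491 and 381 FPKM to 71.3, 83.9 and 71.0. A nitric oxide dioxygenase, which turns nitric oxide to nitrate (jgi_Trias1_62475), was at 804, 14732 and 12581 FPKM in the controls and at 2092, 2579 and 2572 at 500 μg/mL. Fungal nitric oxide reductase (jgi_Trias1_136021) was at 664, 3533 and 3730 FPKM in the controls and at 686, 999 and 657 at 500 μg/mL. For these genes, and for the other nitric oxide dioxygenase (jgi_Trias1_131161), the direction against a single control depended on which control it was. They were called lower without control replicate 1 and not over 12 libraries.

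Of the 9 hydrophobins tested, 2 rose, HFB1 alone of these under both centred fits as well, and 1, described above, fell. HFB1 (jgi_Trias1_54184) was one of the most abundant transcripts of all, at 1257, 1115 and 1229 FPKM in the controls and at 17807, 16302 and 13470 at 500 μg/mL, a log2 fold change of 3.71 ± 0.23 with and 3.75 ± 0.21 without control replicate 1. At 100 μg/mL it was at 7042, 9137 and 9612 FPKM and at 1000 μg/mL at 24209, 23825 and 25197. The most abundant hydrophobin in the controls (jgi_Trias1_57390) was at 7562, 15238 and 16363 FPKM there and at 9279, 7354 and 8762 at 500 μg/mL, and was not called. At 500 μg/mL HFB1 thus stood above it in all 3 libraries, and in the controls below it in all 3. Both values are per length, so that the levels of the genes can be compared.

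Chitinases and glucanases rose in 10 of 64 genes (15.6%) and fell in 4. The balance of this list turned with the scaling: 5 of the 10 rises held under both centred fits, and with centring and no control replicate 1 limma called 5 higher and 12 lower. Chitinase CHI2_4 (jgi_Trias1_41515) rose from 0.66, 1.99 and 0.54 FPKM to 16.9, 16.9 and 19.5, and a second chitinase (jgi_Trias1_72752) from 4.16, 5.75 and 6.25 FPKM to 46.8, 47.4 and 45.2. A beta-1,3(4)-endoglucanase (jgi_Trias1_172639) rose from 33.5, 43.3 and 48.2 FPKM to 248, 222 and 223. A glucan 1,3-beta-glucosidase (jgi_Trias1_65834) fell from 20.8, 61.5 and 74.6 FPKM to 11.3, 14.7 and 15.7, a call that was lost when any library other than control replicate 1 was left out. Of the chitin and glucan synthases 1 of 9 fell, CHS4 (jgi_Trias1_23020), at 79.0, 58.1 and 80.6 FPKM in the controls and 39.4, 31.9 and 30.4 at 500 μg/mL. Its call was lost without control replicate 3, with a log2 fold change of -0.99, and without replicate 2 or 3 at 500 μg/mL, with -1.03 and -0.998.

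In the other lists few genes were called, but some shares were above those of all genes (9.82% risen and 2.11% fallen). Fallen genes made up 12.5% of sterol biosynthesis. They made up 9.09% each of sugar transporters and of glycolysis with the pentose phosphate pathway. Risen genes made up 13.6% of proteases. Transaldolase (jgi_Trias1_73965), an enzyme of the pentose phosphate pathway, rose from 5.79, 9.69 and 14.7 FPKM to 122, 139 and 195. It lay in a run of 4 neighbours beside D-arabinitol 2-dehydrogenase. The list of glycolysis and the pentose phosphate pathway had 1 of 22 genes risen and 2 fallen. Its largest fall was that of an enolase (jgi_Trias1_205633), from 16.07, 42.59 and 63.45 FPKM to 9.02, 8.48 and 9.76. A 6-phosphogluconate dehydrogenase (jgi_Trias1_182338) also fell, by a log2 fold change of -1.933 with and -1.323 without control replicate 1. Sterol biosynthesis had 1 of 24 risen and 3 fallen, among the fallen a C-4 methylsterol monooxygenase (jgi_Trias1_34278) that went from 209, 100.81 and 100.1 FPKM to 42.1, 28.9 and 51.9. The risen gene (jgi_Trias1_55398) also had the KEGG name methylsterol monooxygenase, and went from 7.14, 4.70 and 6.30 FPKM to 16.8, 14.0 and 16.7. A heat shock protein of 70 kDa (HSPS1, jgi_Trias1_80694) rose from 731, 1680 and 1888 FPKM to 4108, 4283 and 4914, and its ribosome-bound relative SSB1 (jgi_Trias1_140277) fell from 1823, 1080 and 1125 FPKM to 648, 488 and 461. Of the 27 heat shock proteins and chaperones 3 rose, and none of the 3 held in both centred fits, HSPS1 being at 0.93 on the log2 scale with centring and no control replicate 1. A zinc transporter of family 30 (jgi_Trias1_59258) rose from 20.4, 21.6 and 21.5 FPKM to 104, 126 and 141, and one of family 39 (jgi_Trias1_127019) fell from 37.3, 43.8 and 33.0 FPKM to 17.4, 15.7 and 15.1. The first family moves zinc out of the cytosol and the second into it. Transcription factors rose in 5 of 45 genes (11.1%), sulfur assimilation in 1 of 23 and proteases in 3 of 22. Sugar transporters had 2 of 33 genes risen and 3 fallen, amino acid, peptide and ammonium transporters 2 of 29 risen and 2 fallen, and iron and metal transport 3 of 30 risen and 1 fallen. Of the polyketide, peptide and terpene synthases 1 of 6 fell.

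By the GO terms of the table with at least 50 tested genes, the term metabolic process held 52 risen (20.2%) and 16 fallen genes (6.23%) of 257, and catalytic activity 52 risen (18.6%) and 9 fallen (3.21%) of 280, beside 9.82% and 2.11% of all genes. Gene expression held 4 fallen genes of 86 and a median log2 fold change of -0.66 with and -0.47 without control replicate 1. Genes with no known function made up 43.9% of the risen and 35.7% of the fallen genes, against 47.3% of those tested. The largest rise of all among these was that of jgi_Trias1_62973, from 1.95, 0.64 and 0.80 FPKM to 315, 300.0 and 121, a log2 fold change of 6.78 ± 0.47 with and 7.04 ± 0.49 without control replicate 1. The largest fall was that of jgi_Trias1_56705, from 312, 334 and 166 FPKM to 15.7, 23.7 and 7.75.

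In 17 genes the table listed 0 FPKM in all 3 controls and more than 1 in all 3 libraries at 500 μg/mL, and in 2 genes the reverse. The highest of the 17 (jgi_Trias1_41705) was at 19.2, 24.4 and 13.4 FPKM and belonged to a run of 5 neighbours. No fold is given for these genes, since a listed 0 carries no depth.

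A maximum or minimum at the middle dose was called for no gene by limma over 12 libraries: 0 genes were called higher at 500 μg/mL than in the control and above both other doses at an adjusted p under 0.05, and 0 were lower in the same way. At an unadjusted p under 0.05 for the comparisons with the other doses, 25 genes had a middle-dose maximum and 5 a minimum. Without control replicate 1 the counts at an adjusted p were 19 and 2. The haloalkane dehalogenase above had its highest mean at 500 μg/mL, but its 3 libraries there (62.5 to 177 FPKM) overlapped with those at 1000 μg/mL (34.4 to 109).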

How the data were processed

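Processing steps that bear on 500 μg/mL dichlorvos against the control were as follows. The authors sequenced 12 libraries, analysed the reads against the Trias1 genome and deposited FPKM of 11647 genes. The submitters' processing notes name BWA, Bowtie and RSEM, without roles; how reads of near-identical genes were shared out is not given in the sources used here. Library sums of FPKM lay between 895521 and 958261, and the values carry no read counts, so depth is unknown and no counting interval can be given. Per-library columns without a sample numbered 0. Genes averaging under 1 FPKM in the 6 libraries were left out, and log2(FPKM + 1) was tested with limma 3.58.1 (R 4.3.3, intensity trend, 4 groups in 1 fit, Benjamini-Hochberg over 8748 genes); fold changes are on that scale and understate those of low genes. The fit was tested on simulated data. For a single gene the smallest two-sided p that exact permutation of 3 and 3 libraries allows is 0.1. KEGG names needed an E value of at most 1e-20. Python 3.11.15 (numpy 2.4.6, pandas 2.3.3, matplotlib 3.10.9) was used for the rest.

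Named genes were those called the same way with and without control replicate 1 and above 0 FPKM in all 6 libraries: the 10 largest rises and falls with an annotation, the 2 largest of each without, and the largest rise and fall of each list, 65 in all. Other genes named were chosen after their values were seen. The members and the 35 lists, 34 of which had a tested gene, were chosen with earlier results of these data known, and search terms of some lists were narrowed after reading the annotation.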

Additional observations from a re-analysis of the deposited data

How the results depend on the processing

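Of 1104 values of the 65 named genes under 17 other fits, 1079 kept their call, 25 lost it and 0 reversed, and 54 genes kept it in every fit. These genes were chosen for large changes called with and without control replicate 1, so the fit without that library could lose none. Their record is thus no measure of how the calls of other genes hold. The counts of genes called depended more on the choices. With library weights limma called 1521 higher and 473 lower (control replicate 1 had a weight of 0.061), with the 2 groups alone 602 and 127, and with these and no control replicate 1 1476 higher. Centring on the median gave 503 lower, and centring without control replicate 1 gave 989 lower. The NOISeq rule called 174 higher and 43 lower, and without control replicate 1, an alternative chosen after seeing the data, 494 and 180. Leaving out 1 library gave 759 to 1482 higher and 200 to 392 lower, the lowest counts of both kinds being those without 500 μg/mL replicate 2 (759 and 200) and the highest count of higher genes that without control replicate 1. Genes at a middle-dose maximum numbered 0 to 19 and at a minimum 0 to 2 when 1 library was left out; leaving out controls for these was added after seeing the data. Other filters, pseudocounts, TPM or no trend moved no count by over 1.5 times. Deviations of same-numbered libraries of the control and of 500 μg/mL from their group means correlated at 0.338, -0.013 and 0.337. Control replicates 1 and 3 correlated best with their own number, and control replicate 2 with 500 μg/mL replicate 3 (0.326). Deviations within a group are tied to each other through its mean, so these values cannot decide whether same-numbered libraries shared a batch. With the replicate block limma called 963 higher and 326 lower, and 1 gene at a middle-dose maximum.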
